A study of Homo sapiens with 7 samples.

Results

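The regions described here are peaks of histone H2A phosphorylated at threonine 120 (pT120) that were called in cells with the kinase VRK1 targeted by small interfering RNA and in no other library of the study. They were taken from the siVRK1 pT120 list as the peaks that share not a single base with a peak of the other 6 lists. This left 36439 of the 42461 peaks of that list (85.8%, 85.5 to 86.1, exact Clopper-Pearson 95% interval), out of 148917 peaks in all 7 lists. They are called unique pT120 peaks below. The cells were HT1080, a human fibrosarcoma line, transfected with an siRNA against VRK1 (siVRK1) or with a non-targeting siRNA (siControl). The siControl cells gave 4 libraries, for pT120, for H2A ubiquitylated at lysine K119 (ubK119), for VRK1 and for input DNA. The siVRK1 cells gave 3, for pT120, ubK119 and input DNA. No library measured VRK1 after siVRK1, and the depletion of the kinase is therefore not verified here.

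Each library was the only one of its kind. The values below therefore compare libraries rather than conditions, no test across samples was possible, and no p-value was computed. Depth ranged from 20687408 reads for siControl pT120 to 40442635 for siControl ubK119, with 36030842 for siVRK1 pT120. The 95% intervals cover counting error alone, as reads amplified by PCR and not tagged by molecule are not independent. Positions are in the genome build hg19 as deposited. The genes, sequence and base composition of these regions were not analysed here.

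VRK1 is a nuclear serine/threonine kinase that phosphorylates histone proteins and works in cell division and the DNA damage response. Threonine 120 lies in the C-terminal tail of H2A, next to lysine K119, which the Polycomb repressive complex PRC1 marks with a single ubiquitin. The series title ties the phosphorylation of T120 to cyclin D1, a regulator of entry into the cell cycle, and to transformation. The peaks considered here are the places where pT120 was called in siVRK1 cells and no peak was called in any other library.

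Unique pT120 peaks were low and short. Their median height, the authors' largest pile-up of extended reads in the region, was 12 reads, which is also the minimum of the list. A height of exactly 12 was held by 20818 of them (57.1%), and 92.3% had a height of 14 or less. The highest reached 33 reads, and 72 had 20 or more. The other 6022 siVRK1 pT120 peaks had a median height of 16 reads, and 1710 of them had 20 or more. Uniqueness therefore fell away with height in this list. Of the peaks with a height of 12, 95.1% were unique, of those with 16, 59.8%, and of those with 20, 11.6%. Height is part of what makes a peak callable, so this is a description of how the rule sorted the list.

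**Figure D1:**
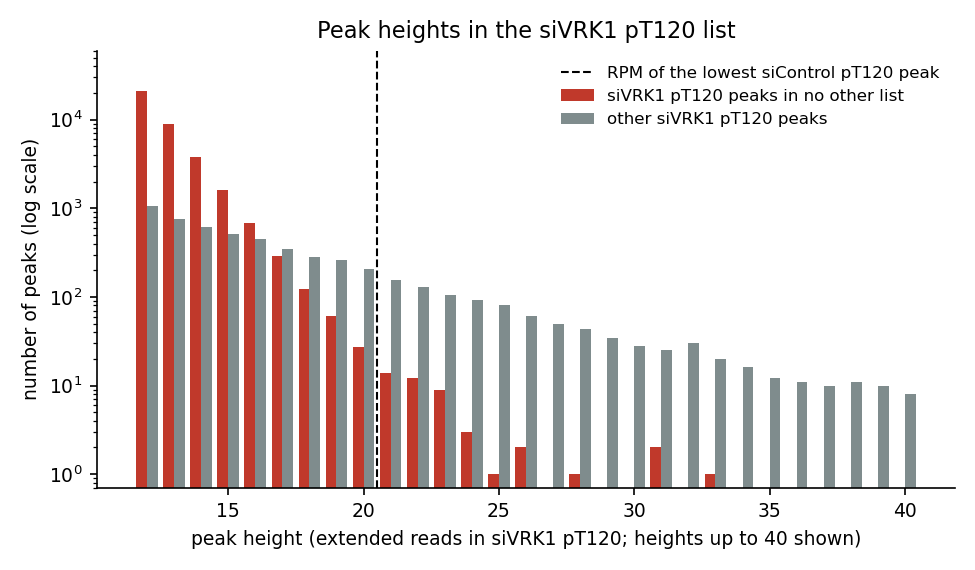
Number of siVRK1 pT120 peaks (log scale) at each height from 12 to 40 extended reads, for peaks in no other list (red) and the other peaks of the list (grey); the dashed line marks the height that equals the lowest siControl pT120 peak in RPM (reads scaled to a library total of 1000000). Unique peaks are the more frequent up to a height of 16 and the rarer from 17 on, and 45 lie to the right of the line.

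The median length of unique pT120 peaks was 210 bp, with quartiles of 200 and 261 bp. A length of 200 bp, the shortest in the list, was held by 15755 of them (43.2%), against 12.4% of the other peaks, whose median length was 369 bp. Only 165 unique peaks were longer than 600 bp and 19 longer than 1 kb. Together they covered 8.80 Mb. In 40.9% of unique peaks the reads counted inside the region were fewer than the height, which counts extended reads, and in 9 they were fewer than 0.5 of it. The authors' deposited Mann-Whitney p-value was 0.05 or lower for 3535 unique peaks (9.70%), against 10.1% of the whole list, a share at the background. In the peaks unique to the other libraries that share lay between 15.4% for siControl input and 27.1% for siVRK1 ubK119.

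The siVRK1 pT120 list also reached lowest in depth-scaled terms. Its minimum of 12 reads corresponded to 0.333 RPM, whereas the minimums of the other lists were 0.371 RPM for siControl ubK119, 0.421 for siVRK1 input, 0.437 for VRK1, 0.446 for siControl input, 0.580 for siControl pT120 and 0.6005 for siVRK1 ubK119. In the same order, these lists held 20574, 13303, 9909, 10907, 2505 and 8050 peaks found in no other list. The library with the lowest minimum thus had the most unique peaks, and siControl pT120, with a high minimum, the fewest. A unique pT120 peak would have needed a height of 21 reads to equal the lowest siControl pT120 peak in RPM, and 45 of 36439 (0.123%) had it. At the minimum of the siControl ubK119 list, 6591 (18.1%) would have passed. The part of the minimum and of depth in the number of unique peaks was not tested beyond these counts.

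**Figure D2:**
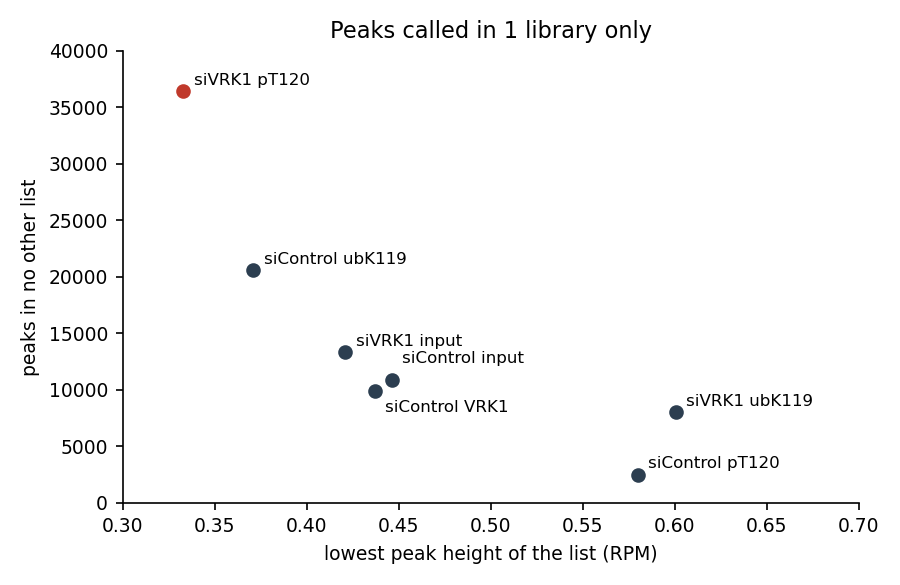
Number of peaks found in no other list (vertical axis) against the lowest peak height of the list in RPM (horizontal axis), 1 point per library, with siVRK1 pT120 in red. The siVRK1 pT120 list has the lowest minimum, 0.333 RPM, and the most such peaks, 36439, while siControl pT120 has 2505 at 0.580 RPM.

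The reads of all 7 libraries were then compared inside these regions. A unique pT120 peak held 5 to 102 reads of siVRK1 pT120, with a median of 12 (0.333 RPM). In siControl pT120 the counts ran from 0 to 28 with a median of 2 (0.0967 RPM), and 6989 regions (19.2%) had none. A count of 0 in that library allows a level of up to 0.145 RPM, which is the level of 3 reads. The medians of siControl and siVRK1 ubK119 were 5 and 2 reads (0.124 and 0.0667 RPM), with maxima of 58 and 47. VRK1 had a median of 3 reads (0.0936 RPM) and at most 43. The siControl and siVRK1 inputs each had a median of 3 reads (0.112 and 0.0902 RPM), with maxima of 46 and 51. The siVRK1 pT120 library was the highest of the 7 in RPM in 34595 regions. Since it chose the regions, this is no finding.

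Per kb of region, siVRK1 pT120 stood at 1.52 RPM (1.517 to 1.526) and siControl pT120 at 0.434 RPM (0.431 to 0.437). The remaining libraries lay close to the latter. The inputs had 0.517 RPM per kb under siControl and 0.449 under siVRK1, VRK1 had 0.418, and ubK119 had 0.585 under siControl and 0.353 under siVRK1. The siVRK1 pT120 level over that of siControl was 3.505 (3.48 to 3.53), a value whose direction the choice of regions fixes. Not 1 of them was at least 2-fold lower in siVRK1 cells (0 of 35624, against 0.658% of the list). By the same choice, 29429 unique peaks with 10 or more reads in the pT120 pair (82.6% of 35624) were at least 2-fold higher in siVRK1 cells, against 73.9% of all peaks of the list, and nothing is read from this. The ratio was 3.52 at a height of 12 and 3.57 at 14. Above that it was lower at each step, with 3.41 (3.33 to 3.50) at 15 to 16, 2.98 (2.84 to 3.12) at 17 to 19 and 2.62 (2.40 to 2.86) in the 72 regions with a height of 20 or more. The highest unique peaks were thus those with the most siControl pT120 too, 0.709 RPM per kb against 0.425 at a height of 12. The siControl input was higher there as well, at 0.752 against 0.508.

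**Figure D3:**
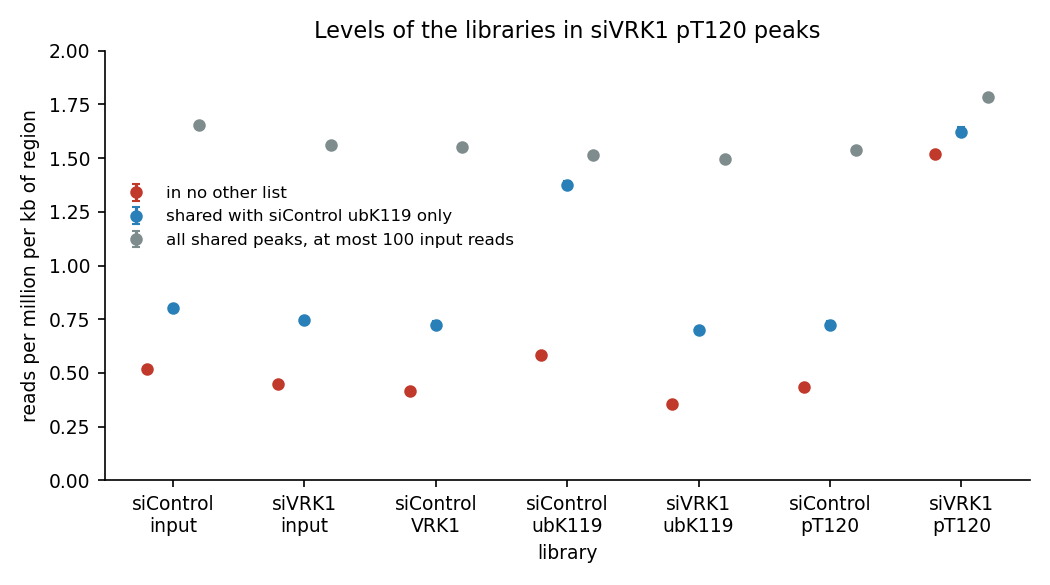
RPM per kb of region (vertical axis) of each library (horizontal axis) in siVRK1 pT120 peaks of no other list (red), peaks shared with siControl ubK119 alone (blue), and all shared peaks below the limit of 100 reads in either input (grey); bars are exact Poisson 95% intervals and are mostly smaller than the points. In the red group siVRK1 pT120 stands at 1.52 while the other libraries lie between 0.353 and 0.585.

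The libraries that the height of these peaks did not use could be set against each other. They are still limited by the rule, which removes regions with a peak in any of them. In siControl cells, pT120 stood below its input in unique peaks, at 0.840 times (0.833 to 0.848), and VRK1 likewise at 0.808 times (0.802 to 0.815). Both ratios were below 1 on 24 of 24 chromosomes. Scaled to library totals, neither of these siControl libraries thus exceeded input in the regions called in the siVRK1 pT120 library alone. Values below input were not particular to unique peaks, though they were lower there. In the 5440 shared peaks whose inputs both stayed within 100 reads, siControl pT120 stood at 0.928 times input and VRK1 at 0.937 times. In the 1112 peaks shared with siControl ubK119 alone, these values were 0.904 and 0.906. No other scaling was applied to ratios over input, so their side of 1 was not tested beyond this. In unique peaks, the ubK119 library of siControl cells was the only one above input, at 1.13 times (1.12 to 1.14). It was the highest of the 6 other libraries in 11458 regions (31.4%), followed by siControl input with 7999 and siControl pT120 with 5370. The same count was not made for the other peaks of the list, and nothing is read from it.

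In siVRK1 cells the relation of ubK119 to input turned under this scaling. ubK119 stood at 0.787 times (0.780 to 0.794) the siVRK1 input. Its RPM in siVRK1 over siControl cells, without regard to input, was 0.604 (0.599 to 0.609). This ratio was below 1 on 24 of 24 chromosomes, from 0.547 on chromosome Y to 0.755 on chromosome 15, with intervals below 1 on each. The inputs also had a ratio below 1, at 0.869 (0.862 to 0.876), on 24 of 24 chromosomes and with intervals below 1 on 19 of them. The input ratio was nearer to 1 than the ubK119 ratio, but its direction depends on the scaling. It was 1.09 when libraries were scaled to their reads in siControl input peaks, where the ubK119 ratio was 0.444. Among regions with 10 or more ubK119 reads, 4053 of 11752 unique peaks (34.5%) were at least 2-fold lower in siVRK1 cells, against 28.5% of all such peaks of the list and 16.7% of the peaks shared with other lists. At least 2-fold higher were 957 (8.14%), against 8.66% of the list, a share at the background. For the inputs the 2-fold lower share was 15.4% of unique peaks against 12% of the list, and the 2-fold higher share 8.55% against 7.15%. The 10 reads were counted over both libraries of a pair. For ubK119, 11752 of 36439 unique peaks reached them, against 5882 of the 6022 other peaks. With medians of 5 and 2 reads under siControl and siVRK1, unique peaks passed near this limit, more readily where siControl ubK119 was high. Nothing is therefore read from the differences between these shares. The ubK119 lists had different minimums, 0.371 RPM for siControl and 0.6005 for siVRK1, so the rule removed regions at lower siControl than siVRK1 levels of ubK119. The ubK119 ratio was 0.613 (0.606 to 0.620) at a height of 12 and 0.509 (0.459 to 0.563) at heights of 20 or more.

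The 1112 siVRK1 pT120 peaks that overlapped a siControl ubK119 peak and no other list were the nearest group to compare with. They were somewhat higher and longer, with medians of 13 reads and 276.5 bp. Their siVRK1 pT120 level per kb was much like that of unique peaks, 1.62 against 1.52 RPM, but every other library was higher, for example siControl pT120 with 0.724 against 0.434 RPM. The ubK119 ratio was 0.507 (0.495 to 0.520) there, in a group chosen for siControl ubK119. In the 5440 shared peaks in which neither input exceeded 100 reads, all 7 libraries lay between 1.49 and 1.79 RPM per kb and the ubK119 ratio was 0.985 (0.978 to 0.993). The mirror group, the 2505 siControl pT120 peaks in no other list, had a ubK119 ratio of 1.68 (1.64 to 1.71), an input ratio of 1.17 (1.15 to 1.20), and VRK1 at 1.19 times (1.16 to 1.22) its input. In the ubK119 and VRK1 measures it lay on the other side of 1 from the peaks unique to siVRK1 pT120. For the inputs this depends on the scaling, under which the input ratio of unique pT120 peaks was 1.09 or 1.37. For the mirror group and for VRK1 over input, no other scaling was tested. A ubK119 ratio above 1 was also found in the peaks unique to siControl input (1.37), siVRK1 input (1.71), VRK1 (1.74) and, by its own choice, siVRK1 ubK119 (3.62). Only the peaks unique to siControl ubK119 had a lower one than unique pT120 peaks, 0.545. VRK1 over siControl input was also above 1 outside the mirror group. It was 1.12 in the peaks unique to siVRK1 input, 1.13 for siControl ubK119 and 1.42 for siVRK1 ubK119. By their own choice of regions, it was 2.51 in the peaks unique to VRK1 and 0.421 in those unique to siControl input. These ratios were compared by their counting intervals, without a replicate check.

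The edge of the rule separates like regions. The 259 unique peaks with a peak of another list within 50 bp had 1.57 RPM per kb of siVRK1 pT120 and 0.772 of siControl pT120. The 309 excluded peaks with at most 50 bp covered had 1.58 and 0.808. Both groups had a median height of 13 reads. Such cases were few, since the median distance from a unique peak to the nearest peak of any other list was 11.96 kb, and 6.46% had one within 500 bp. By list, the median distance was 40824 bp to a siControl input peak, 58685 bp to a siControl ubK119 peak, 65733 bp to a VRK1 peak, 46051 bp to a siVRK1 input peak, 221749 bp to a siControl pT120 peak and 272888 bp to a siVRK1 ubK119 peak. The lists hold different numbers of peaks, and the farthest, siVRK1 ubK119, has 13818 against 6665 in siControl pT120.

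Unique pT120 peaks were spread very unevenly over the chromosomes. Chromosome 3 held 10337 of them, 52.3 per Mb of the span covered by peaks, chromosome 13 held 4008 (41.9 per Mb) and chromosome 5 held 3687 (20.4 per Mb), against 12.2 per Mb in the genome. These 3 chromosomes made up 15.9% of the span and 49.5% of the unique peaks. At the other end, chromosome X had 22 (0.161 per Mb), chromosome 22 had 26 (0.743 per Mb) and chromosome Y had 38 (0.774 per Mb). Peaks unique to the siControl input, which saw no antibody, were densest on the same chromosomes, with 13.2 per Mb on chromosome 3 and 10.2 on chromosome 13 against 3.66 in the genome. The same 3 chromosomes held 42.7% of them, 36.3% of those unique to VRK1 and 32.2% and 22.9% of those unique to ubK119 under siControl and siVRK1.

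Relative to input, the balance still differed between chromosomes. There were 3.34 unique pT120 peaks for each peak unique to siControl input in the genome, 4.40 on chromosome 9, 4.17 on chromosome 18 and 4.12 on chromosome 13, but 1.08 on chromosome 22 and 1.60 on chromosome 19. Against the peaks unique to siControl ubK119, with 1.77 in the genome, the ratio was 3.69 on chromosome 3 and 3.23 on chromosome 13. It was 0.682 on chromosome 17, 0.541 on chromosome 20, 0.453 on chromosome 19 and 0.286 on chromosome 22. It was also below 1 on chromosomes 10 (0.917), 11 (0.929) and 16 (0.843). Chromosomes X and Y, with few peaks of either kind, had ratios of 5.50 and 4.75.

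The share of siVRK1 pT120 peaks that were unique reached its maximum with 98.3% (97.9 to 98.7) of those on chromosome 13, and came to 95.5% of those on chromosome 3. It was lowest on chromosome Y at 13.7% (9.86 to 18.3), chromosome X at 20.8% (13.5 to 29.7) and chromosome 18 at 25.8% (24.3 to 27.3), where most siVRK1 pT120 peaks were also called in other libraries. On chromosomes X, Y and 18 the unique peaks had high input, with 0.744, 0.694 and 0.721 RPM per kb in siControl cells, against 0.581 on chromosome 3 and 0.498 on chromosome 13.

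**Figure D4:**
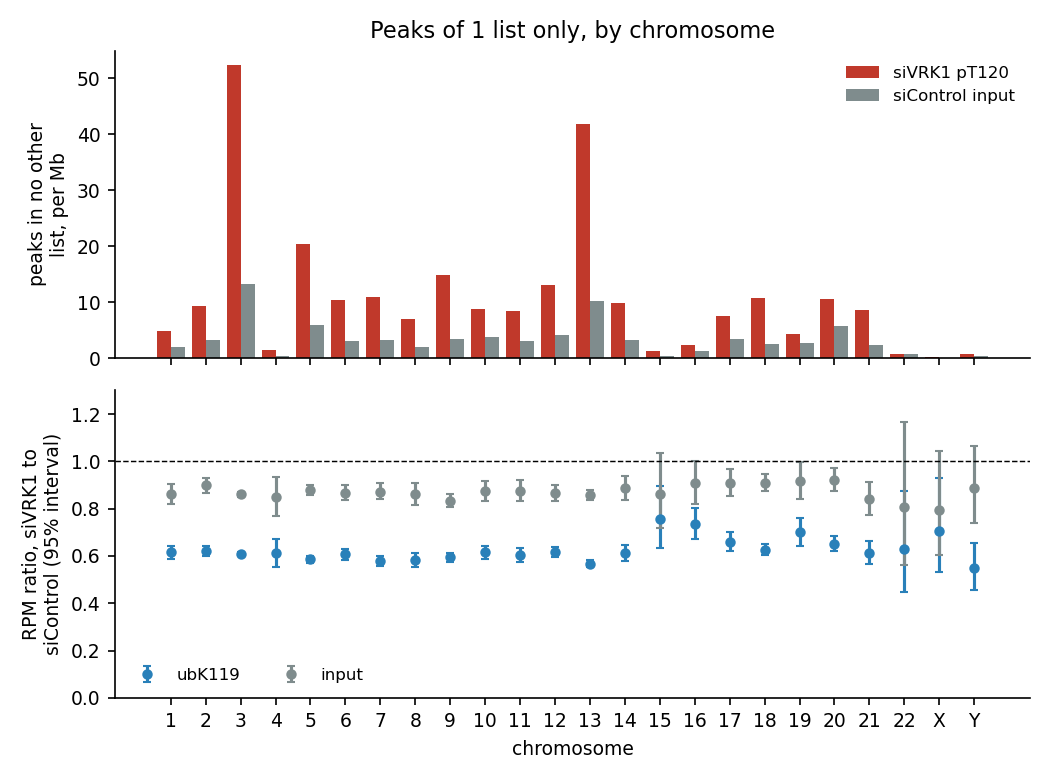
Top, peaks found in no other list per Mb on each chromosome for siVRK1 pT120 (red) and siControl input (grey); bottom, RPM ratio of siVRK1 to siControl for ubK119 (blue) and input (grey) in the siVRK1 pT120 peaks of no other list, with exact 95% intervals. Chromosomes 3 and 13 stand out in both lists at the top, and all 24 ubK119 ratios lie below 1.

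Density also changed in steps along several chromosomes. The split points below were chosen after the densities were seen. On chromosome 3, windows of 10 Mb before position 100 Mb held 63 to 150 unique pT120 peaks each, and those after it 690 to 1205, so that 90.7% of the peaks of the chromosome lay in its later part. Peaks unique to siControl input went from 284 to 2334 across the same point, and the number of unique pT120 peaks per input peak was 3.40 before and 4.01 after it. The siControl input level inside the pT120 peaks was 0.453 and 0.593 RPM per kb. On chromosome 5, the first 30 Mb held 520 to 831 unique peaks per window and the rest 6 to 131. On chromosome 9, the first 40 Mb held 424 to 539 per window, or 95.1% of the chromosome, and later windows at most 27. On chromosome 18, 92.3% lay before 20 Mb. On chromosomes 5, 9 and 18 the shorter stretch before the split likewise held more peaks unique to siControl input than the longer one after it, with 548 against 520, 436 against 42 and 167 against 35. The ubK119 ratio hardly moved across these splits, with 0.639 and 0.604 on chromosome 3, 0.583 and 0.592 on chromosome 5, 0.592 and 0.627 on chromosome 9, and 0.626 and 0.651 on chromosome 18. Other values differed between the sides. The pT120 ratio was 3.86 and 3.15 on chromosome 3 and 3.12 and 4.23 on chromosome 5. It was 3.46 and 3.51 on chromosome 9 and 2.22 and 5.94 on chromosome 18. The siControl input level was 0.572 and 0.427 RPM per kb on chromosome 5. On chromosome 9 it was 0.535 and 0.568, and on chromosome 18 0.746 and 0.303.

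Neighbouring unique pT120 peaks lay a median of 18.2 kb apart, with quartiles of 5.48 and 63.2 kb, and 2214 gaps (6.08%) were of 1 kb or less. The median gap was 6.78 kb on chromosome 3, 5.40 kb on chromosome 18 and 352 kb on chromosome 4. Of the 2471 windows of 1 Mb with a unique peak, the median held 8 and 61 held 100 or more. Among these 61 windows, 51 were on chromosome 3, 7 on chromosome 5 and 2 on chromosome 18. The densest were the neighbours from 6 to 7 Mb and from 7 to 8 Mb on chromosome 18, with 214 and 187 unique peaks of 613 and 610 siVRK1 pT120 peaks. The densest windows of chromosome 3 held fewer unique peaks but a larger share of them, with 139 of 141 from 173 to 174 Mb and 138 of 138 from 168 to 169 Mb.

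Single regions show what these numbers look like. Among the peaks nearest to the median in height, length and reads was that on chromosome 2 from 123161837 to 123162047, with 12 reads of siVRK1 pT120 and 1 of siControl pT120. The other libraries had 4 and 1 reads of ubK119 under siControl and siVRK1, 1 of VRK1, and 1 and 3 input reads. The pT120 ratio of 6.89 had an interval from 1.02 to 295, and a single peak of this kind is at the limit of what the depth resolves. The peak on chromosome 1 from 107703324 to 107703534 had 12 and 0 pT120 reads and 3 reads in each input. On chromosome 2 from 20095772 to 20095982, 12 and 0 pT120 reads stood beside 1 siVRK1 and 3 siControl input reads.

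Of the 8 highest unique peaks, 7 had reads in all libraries. The highest, on chromosome Y from 59014240 to 59014721, had a height of 33 reads and counts of 42 in siVRK1 pT120, 11 in siControl pT120, 21 in siControl ubK119, 5 in siVRK1 ubK119, 21 in VRK1, and 12 and 15 in the siControl and siVRK1 inputs. The nearest peak of another list was 0.017 kb away. On chromosome 7 from 152106829 to 152107339, 46 and 11 pT120 reads gave a ratio of 2.40 (1.23 to 5.14), with 10 and 15 input reads. Near the start of chromosome 4, from 60607 to 61064, the 41 and 18 reads gave 1.31 (0.735 to 2.42), an interval that includes 1. The peak near the end of chromosome 4, from 190830605 to 190831044, stood apart from these. It had 30 reads of siVRK1 pT120 against 1 of siControl pT120, 10 and 0 of ubK119, 4 of VRK1, and 2 and 1 of input, which gave a pT120 ratio of 17.2 (2.86 to 703) and 27.7 times (4.60 to 1130) its input.

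A pair of named regions lay close together on chromosome 13. That from 63629294 to 63629800 had a height of 26 reads and 38 against 15 pT120 reads (1.45, 0.782 to 2.85). The other, from 63634557 to 63636061, was among the longest with 1504 bp and had 84 against 9 reads, a ratio of 5.36 (2.69 to 12.1), with 38 and 4 ubK119 reads and 16 and 27 input reads. On chromosome 16 from 33535737 to 33537092, 87 against 6 reads gave 8.33 (3.67 to 23.3), with 42 and 7 ubK119 reads, 16 VRK1 reads, and 22 and 17 input reads. There siControl pT120 was 0.355 times its input and siVRK1 pT120 4.72 times (2.79 to 8.48). In both of these last regions pT120 and ubK119 differed between the siRNAs in opposite directions. The pooled unique peaks did so too, with ratios of 3.505 and 0.604, and the rule fixed the direction of pT120. The remaining high peaks had more modest values. On chromosome 7 from 61528673 to 61529142 the counts were 37 and 11 (1.93, 0.965 to 4.20), and on chromosome 20 from 29620538 to 29621513 they were 61 and 17 (2.06, 1.19 to 3.76).

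The longest unique peaks were mostly on chromosome 18. The region from 8906645 to 8908440, 1795 bp long, had 102 and 24 pT120 reads (2.44, 1.55 to 3.98), 52 and 15 ubK119 reads, 28 VRK1 reads, and 46 and 37 input reads. That from 7719490 to 7721233 had 88 and 24 pT120 reads, a ratio of 2.11 (1.33 to 3.46), and the most siControl ubK119 of any unique peak, 58 reads against 19 in siVRK1 cells. That from 6343699 to 6345176 had 78 and 25 (1.79, 1.13 to 2.93). The long region on chromosome 6 from 57527621 to 57529021 differed from them, with 54 and 47 ubK119 reads and 43 VRK1 reads, the highest VRK1 count of any unique peak. With 38 siControl input reads, VRK1 was 0.9498 times input there (0.5996 to 1.51), an interval that includes 1. Its 80 and 26 pT120 reads gave 1.77 (1.12 to 2.87), and siVRK1 pT120 stood at 1.45 times (1.01 to 2.10) its input of 51 reads. On chromosome 2 from 133005263 to 133006223, VRK1 had 31 reads beside 60 and 20 pT120 reads, and 28 and 30 input reads, so that VRK1 was 0.929 times input (0.539 to 1.61).

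The densest windows of chromosome 18 held a wide range. From 6 to 7 Mb, the first unique peak (6033872 to 6034154) had 17 and 0 pT120 reads with 16 and 2 of ubK119. The highest (6925097 to 6925505) had 24 and 8, and the last (6996737 to 6997086) had 16 and 11, a ratio of 0.835 (0.364 to 1.99). From 7 to 8 Mb, the first (7002357 to 7002760) had 25 and 11 pT120 reads with 8 and 16 input reads, and the last (7988132 to 7988368) had 15 and 7 with 7 and 6 input reads. The highest there (7850923 to 7852143) had 78 and 19 (2.36, 1.41 to 4.12), with 46 and 9 ubK119 reads.

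Among the 4951 unique peaks with at least 20 pT120 reads in both libraries together, the highest ratios belonged to regions without a siControl read. The one with the most siVRK1 reads was on chromosome 3 from 126847181 to 126847707, with 31, at least 5.93-fold higher when the siControl level is taken as 3 reads, and with an exact lower limit of 4.54 that also counts the error of the 31 reads. Its inputs had 6 and 8 reads and ubK119 15 and 2. Next came regions on chromosome 5 (15147370 to 15147878) with 30 reads, chromosome 9 (35883574 to 35884137) with 29, chromosome 3 (120173401 to 120173851) with 28 and chromosome 12 (11022874 to 11023484) with 28. In 4 of these 5 regions siControl ubK119 exceeded siVRK1 ubK119 in RPM, and the exception was 120173401 to 120173851 with 6 and 11. The pooled ubK119 ratio of all unique peaks was 0.604, so nothing particular to these 5 is read from this. At the opposite end, the 3 lowest pT120 ratios were below 1, each with an interval that includes 1. On chromosome 1 from 16066555 to 16066755, 10 and 11 reads gave 0.522 (0.199 to 1.35), on chromosome 3 from 125781630 to 125781830, 11 and 11 reads gave 0.574 (0.226 to 1.46), and from 185903007 to 185903207, 10 and 10 reads gave 0.574 (0.214 to 1.54). In 522 of the 36439 unique peaks the siControl pT120 RPM was at or above that of siVRK1, a count not made for the rest of the list. Over input, the extremes were on chromosome 3 from 175082639 to 175083143, with 28 reads against 0 in the siVRK1 input, at least 8.62-fold with the input taken as 3 reads (exact lower limit 6.56), from 137338075 to 137338608 with 27 against 0, and on chromosome 6 from 150084510 to 150084892 with 23 against 0.

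The surroundings of unique pT120 peaks were described with regions outside them, though in the same siVRK1 pT120 library that chose the peaks. For this, regions called in the VRK1 and ubK119 lists were used that overlap no siVRK1 pT120 peak and exceed 100 reads in neither input. They were grouped by the distance to the nearest unique pT120 peak. Regions close to a unique peak had more siVRK1 pT120 relative to input than regions far away. Because the same library set the distances, this direction may be built in, and the gradient is a description only. In siControl ubK119 regions, siVRK1 pT120 stood at 0.873 times (0.842 to 0.904) the siVRK1 input in the 800 regions within 0.5 kb, at 0.677 times (0.669 to 0.686) at 10 to 50 kb, and at 0.571 times (0.557 to 0.585) in the 2682 regions beyond 200 kb. In VRK1 regions the same series ran from 0.478 (0.456 to 0.502) to 0.319 (0.309 to 0.330), and in siVRK1 ubK119 regions from 0.441 (0.407 to 0.477) to 0.302 (0.293 to 0.311).

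The siControl pT120 library had lower levels far away too, with 0.790 RPM per kb within 0.5 kb and 0.683 beyond 200 kb in siControl ubK119 regions, where siVRK1 pT120 had 0.760 and 0.432. The siControl input was lower by more, with 0.862 and 0.603, and the siVRK1 input had 0.871 and 0.757. Over its own input siControl pT120 therefore stood at 0.917 times (0.879 to 0.958) within 0.5 kb and 1.13 times (1.10 to 1.16) beyond 200 kb in siControl ubK119 regions, and at 1.01 (0.959 to 1.06) and 1.16 (1.13 to 1.20) in VRK1 regions. The other immunoprecipitates were likewise higher over input far away. In siControl ubK119 regions VRK1 went from 1.01 to 1.35 times input, siControl ubK119 from 2.01 to 2.86 and siVRK1 ubK119 from 1.10 to 1.65. Of these, only siVRK1 ubK119 had a higher level far away, with 0.961 and 1.25 RPM per kb. VRK1 had 0.871 and 0.814, and siControl ubK119, in which these regions were called, had 1.734 and 1.725. The siControl ratios were thus higher because the siControl input was lower. The pT120 ratio of siVRK1 to siControl went from 0.962 (0.923 to 1.003) next to unique peaks to 0.633 (0.616 to 0.650) far from them in siControl ubK119 regions. Over all chromosomes, the pT120 ratio was above 1 in none of the 6 distance groups of the 3 lists. The input ratio moved with distance as well, from 1.01 (0.974 to 1.05) to 1.26 (1.23 to 1.29). Nearness to a unique peak also tracks the chromosome, since chromosome 3 holds so many. Without chromosomes 3, 5 and 13, siVRK1 pT120 over input was 0.842 (0.803 to 0.883) within 0.5 kb and 0.569 (0.555 to 0.583) beyond 200 kb. On chromosome 3 alone it was 0.862 (0.795 to 0.935) and 0.643 (0.547 to 0.755). The part of base composition or chromatin state in this gradient was not tested.

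**Figure D5:**
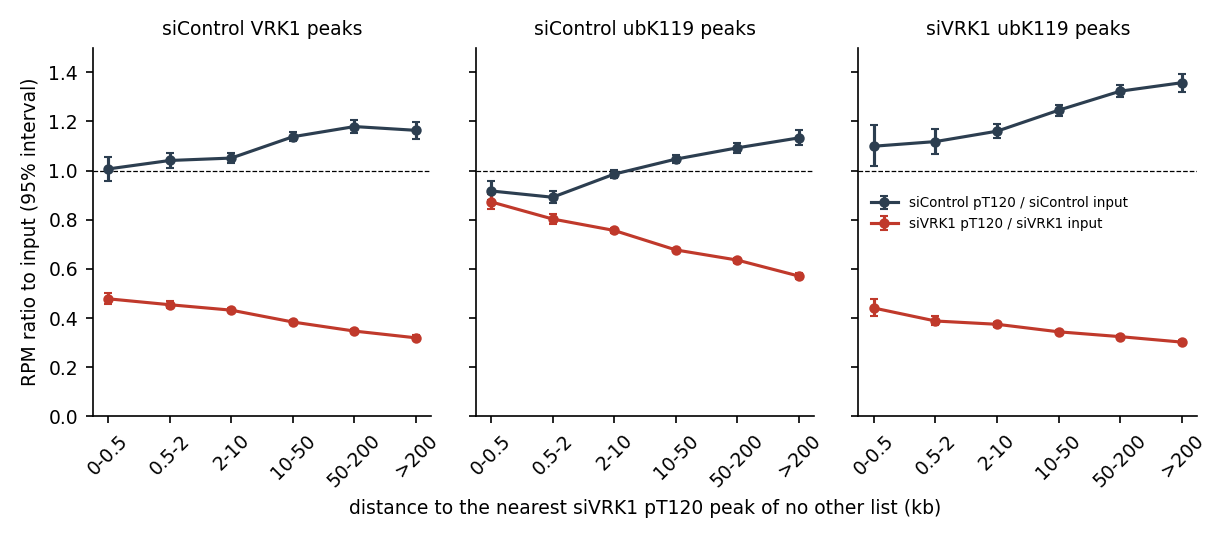
RPM ratio of pT120 to the input of the same siRNA (vertical axis, exact 95% intervals) in VRK1 and ubK119 peaks that overlap no siVRK1 pT120 peak, by their distance in kb to the nearest siVRK1 pT120 peak of no other list (horizontal axis). The siVRK1 ratio (red) is highest next to such peaks in each panel, in the library that chose them. The siControl ratio (dark) is higher far from such peaks.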

How the data were processed

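Chromatin was immunoprecipitated from HT1080 nuclei and, per the labels' protocols, amplified with 20 PCR cycles and read with 36 sequencing cycles. Partek, Bowtie 0.12.8, CASAVA 1.8.2 and the build hg19 appear in the submitters' processing notes, with no role stated. The sources used here do not state the peak-calling settings or how duplicates were treated. Per the file headers, the deposited lists give the peak height as a signal of extended reads, the same height as RPM, a Mann-Whitney p-value, the raw read count of all 7 libraries in each region, and the percent of the region covered by peaks of each library. They do not state whether positions start at 0 or 1, and positions are printed as deposited.

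Library totals were height divided by RPM. Overlap meant at least 1 bp, and it differed from the deposited percent in 0 cases. Ratios are pooled RPM with exact conditional binomial 95% intervals, levels have exact Poisson intervals, and shares exact Clopper-Pearson intervals (Python 3.11.15, scipy 1.17.1). The ratio, overlap and distance code was tested on simulated data. Peaks unique to each list were found the same way.

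Members, groups and alternatives were chosen with earlier results of these data known, and the distance groups, the 10 Mb windows and the second scaling after the values were seen. Named regions were the 8 highest, 5 longest, 5 highest and 3 lowest in pT120 ratio (20 or more reads), 3 highest over input, 3 richest in siControl ubK119, 3 richest in VRK1 and 3 nearest the medians, with the first, highest and last of the 2 densest 1 Mb windows.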

Additional observations from a re-analysis of the deposited data

How the results depend on the processing

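No paired analysis was possible because each condition has 1 library. Counting a peak as shared only from 50% coverage gave 38055 unique peaks, barring other peaks within 500 bp gave 34089, and leaving the inputs out of the rule gave 37085, all within 1.5 times of 36439. A height of at least 21 reads, the depth-scaled siControl minimum, left 45.

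The pT120 ratio was 3.01 with 50% coverage, 3.65 with 500 bp, 2.59 with 21 reads, 3.65 without chromosome 3, and 4.56 when scaled to reads in siControl input regions (4.99 if regions over 100 input reads are left out, an alternative chosen after seeing the data). For ubK119 these were 0.634, 0.589 and 0.498, with 0.444 and 0.454 under the scalings, so ubK119 stayed lower under siVRK1 in all of them. The input ratio was 0.894 (0.798 to 1.003) at 21 reads and turned to 1.09 and 1.37 under the scalings, which rest on regions called for high siControl input. Without chromosome 3 the ubK119 and input ratios stayed within their intervals, and no unique peak had over 100 input reads, so that limit changed none of the 5 ratios. siVRK1 pT120 over input was 2.92, 3.51 and 2.75, and 3.55 without chromosome 3. siControl pT120 over input was 0.850, 0.831 and 0.9496 (0.835 to 1.08), and 0.849 without chromosome 3. The median length was 212 bp with 50% coverage and 487 bp at 21 reads.

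The lowest share of unique peaks on a chromosome was 8.63% (chromosome Y) with 500 bp and 0% (chromosome 21) at 21 reads. The highest was 99.1% with 50% coverage, 95.7% (chromosome 14) with 500 bp and 16.1% (chromosome 6) at 21 reads. The cause of these moves was not tested. Depth limits single regions: the median counts of the other libraries in unique peaks are 2 to 5 reads.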
